A study of Mus musculus with 6 samples.

Results

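The genes described are 9 genes of red blood cell precursors, chosen by symbol as the adult globins, the erythroid enzyme of heme synthesis, erythroid transcription factors, the erythropoietin receptor and a red cell carbonic anhydrase. All 9 were among the 15483 genes listed, and all 9 were tested, since each averaged 1 FPKM or more across the libraries. They were read in RNA-seq libraries of wild-type mouse bone marrow regulatory T cells (Tregs), a class of CD4 T cell that holds other immune cells in check and depends on the transcription factor Foxp3. The 3 irradiated libraries came from mice 3 months after irradiation, and the 3 control libraries from control mice. The cells had been gated as CD3+CD4+Foxp3+ and negative for NK1.1, and the series title links the irradiated mice with premature aging. The labels give no dose of irradiation and no age or sex, and they do not say whether each library came from 1 mouse. P-values therefore measure the spread between these libraries, which may be technical.

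Haemoglobin, the oxygen carrier of red cells, is built from alpha and beta globin chains that each hold a heme group. Heme is made from glycine in a chain of enzymes whose first step is catalysed by Alas2 in erythroid cells and by Alas1 elsewhere. Gata1 and Klf1 are transcription factors that switch on globin and heme genes in erythroblasts, which mature in the marrow around macrophages. Erythroblasts survive through erythropoietin, read by its receptor Epor. Globin transcription is not a known property of Tregs.

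The libraries held transcripts of several marrow cell types beside T cells. Foxp3 averaged 12.6 FPKM in irradiated and 22.6 FPKM in control libraries, while the neutrophil gene S100a8 averaged 39026 FPKM in irradiated and 25282 FPKM in control libraries. FPKM are fragments scaled to transcript length and to the fragments of the library, so levels of genes of different length can be compared. No counts of reads were given, so the depth behind the values is unknown. Of 10666 genes tested, 671 were higher and 1100 lower in irradiated libraries (limma on log2(FPKM + 1), Benjamini-Hochberg adjusted p under 0.05), and the median log2 change of all tested genes was -0.02. Every log2 change is the irradiated mean less the control mean of log2(FPKM + 1), and for genes of few FPKM it comes out smaller than the true change.

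The beta globin genes Hbb-bs and Hbb-bt lie on chromosome 7, and the alpha globin genes Hba-a1 and Hba-a2 on chromosome 11. The copies of each pair are nearly identical in their coding bases, and the sequences below show where those bases differ. The 429 coding bases of Hba-a1 and Hba-a2 differ at 1 base, and the 444 coding bases of Hbb-bs and Hbb-bt also differ at 1 base (GENCODE M21 transcripts on GRCm38). The 61 coding bases around each difference are given in the sense direction, with the differing base in capitals. They span coding bases 351 to 411 in the alpha pair and 384 to 444 in the beta pair.
Hba-a1: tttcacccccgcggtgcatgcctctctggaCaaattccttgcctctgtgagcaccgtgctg
Hba-a2: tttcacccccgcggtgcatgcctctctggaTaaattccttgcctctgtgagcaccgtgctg
Hbb-bs: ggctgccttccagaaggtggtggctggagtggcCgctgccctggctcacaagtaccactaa
Hbb-bt: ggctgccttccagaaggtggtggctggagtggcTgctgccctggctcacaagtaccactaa

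The longest run of identical bases was 415 between the alpha transcripts and 430 between the beta transcripts. Of all stretches of 100 bases in the Hba-a2 transcript, 74.5% also occur in Hba-a1, and 56.5% of those in Hba-a1 occur in Hba-a2. Of the stretches in Hbb-bs, 62.6% also occur in Hbb-bt, against 54.8% the other way. The alpha and beta transcripts share 0 such stretches. The split of reads between the copies of a pair is therefore uncertain. The sum of a pair, and the comparison of alpha with beta, avoid that split only if shared reads were kept. How shared reads were handled is not known here.

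Of the genes lower in irradiated libraries on deposited FPKM, the promoter of Hba-a2 is not printed and Car2 had no promoter entry. The promoters of Hbb-bs, Hbb-bt, Hba-a1 and Alas2 are shown. They are the 150 bases before the annotated start, from RefSeq on GRCm38.p6, on the strand of the gene. These starts differ from the GENCODE M21 gene spans given below. The windows of Hbb-bs and Hba-a1 lie inside those spans, and those of Hbb-bt and Alas2 in part. Capitals mark 4 kinds of motif. A GATA site was searched as NGATAN with A or T at the first place and A or G at the last. A CACCC box was searched as CCNCNCCC. A CCAAT box was searched by the letters of its name. These were read on either strand, and a TATA box, the letters TATAA followed by A or G, only on the strand of the gene. Matches of different motifs may overlap. The regions are chr7:103827929-103828078 (minus strand) for Hbb-bs, chr7:103813924-103814073 (minus) for Hbb-bt, chr11:32283522-32283671 (plus) for Hba-a1 and chrX:150547267-150547416 (plus) for Alas2.
Hbb-bs: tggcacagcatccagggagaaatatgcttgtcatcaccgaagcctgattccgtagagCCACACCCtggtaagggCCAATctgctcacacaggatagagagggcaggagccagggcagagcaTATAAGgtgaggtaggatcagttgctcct
Hbb-bt: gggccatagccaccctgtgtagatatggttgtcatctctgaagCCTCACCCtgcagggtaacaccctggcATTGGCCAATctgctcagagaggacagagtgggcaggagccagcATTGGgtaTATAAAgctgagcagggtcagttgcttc
Hba-a1: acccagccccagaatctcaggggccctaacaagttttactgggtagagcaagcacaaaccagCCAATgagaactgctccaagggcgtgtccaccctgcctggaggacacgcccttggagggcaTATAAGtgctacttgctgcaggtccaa
Alas2: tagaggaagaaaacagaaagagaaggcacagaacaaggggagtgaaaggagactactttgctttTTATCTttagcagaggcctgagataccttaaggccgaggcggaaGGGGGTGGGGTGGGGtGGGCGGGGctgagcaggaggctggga

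All 4 globin promoters hold a TATA box, which begins at -29 in Hbb-bs, -28 in Hbb-bt, -27 in Hba-a1 and -30 in Hba-a2, counted back from the start. Of 32851 RefSeq promoters, 7.28% hold a TATA box in the same 150 bases, 24.5% a CCAAT box, 38.1% a CACCC box and 16.0% a GATA site. The CACCC box, the element that Klf1 binds, begins at -93 in Hbb-bs and -107 in Hbb-bt, and Alas2 has 4 matches on the opposite strand, of which 3 overlap. A GATA site lies at -86 in Alas2, but no GATA site was found in the globin windows and no CACCC box in the alpha pair. Genes that were not called lower hold these motifs too. Klf1 has a GATA site at -80, Epor has a GATA site at -54 and 4 CACCC matches, and Gata1 has 3 CACCC matches. The alpha promoters share a run of 147 identical bases, and the longest run shared by the beta promoters is 14 bases. A match describes the letters in this window and is no evidence of binding.

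Of the 9 genes 6 fell and 0 rose in irradiated libraries on deposited FPKM, while on a scale set by T cell genes 0 were lower and 2 were higher. The 6 were the globins, Alas2 and Car2, and the median log2 change of the 9 was -0.54, against -0.02 over all tested genes. Among all tested genes the limma test called 16.6%, of which 10.3% were lower and 6.29% higher, as shares of the genes tested. The groups did not overlap for 5 of the 9, all lower, where 33.6% of all tested genes had no overlap and 20.1% were lower with none. The copies of a globin pair share much of their sequence, so in these counts the copies of a pair are not separate evidence. In bulk samples fewer cells of a type and less RNA per cell cannot be told apart.

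All 4 globin genes fell in irradiated libraries, to between 57.2% and 63.1% of the control mean, though on the T cell scale none passed. Hbb-bs, the more abundant adult beta globin gene (chromosome 7, 103826534 to 103828096, GENCODE M21), was at 340.1, 316 and 328 FPKM in irradiated libraries 1, 2 and 3, against 575, 549 and 492 FPKM in control libraries 1, 2 and 3. Every irradiated value lay below the lowest control value. Its log2 change was -0.71 ± 0.06 (SE), with a limma adjusted p of 1.1e-05. Hbb-bt, the other adult beta globin gene (chromosome 7, 103812524 to 103813996), was at 91.7, 92.4 and 70.05 FPKM in irradiated libraries, against 172, 143 and 129.99 FPKM in control libraries. Irradiated library 3 was the lowest of the 6, and the groups again did not overlap (log2 change -0.80 ± 0.12, limma adjusted p = 0.00065).

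Hba-a1, an adult alpha globin gene (chromosome 11, 32283511 to 32284465), was at 206, 211 and 208 FPKM in irradiated libraries, against 342, 349 and 300.2 FPKM in control libraries. The irradiated values lay close together, all below the control values, and control library 3 was the lowest control (log2 change -0.66 ± 0.06, limma adjusted p = 1.7e-05). Hba-a2, the second alpha copy (chromosome 11, 32296489 to 32297298), was at 87.1, 95.04 and 87.1 FPKM in irradiated libraries, against 185, 153 and 118 FPKM in control libraries. All control values of Hba-a2 lay above the irradiated ones (log2 change -0.73 ± 0.12, limma adjusted p = 0.0019). On deposited FPKM each of the 4 globins stayed past the threshold whichever of the 6 libraries was left out, with changes between -0.58 and -0.90.

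**Figure D1:**
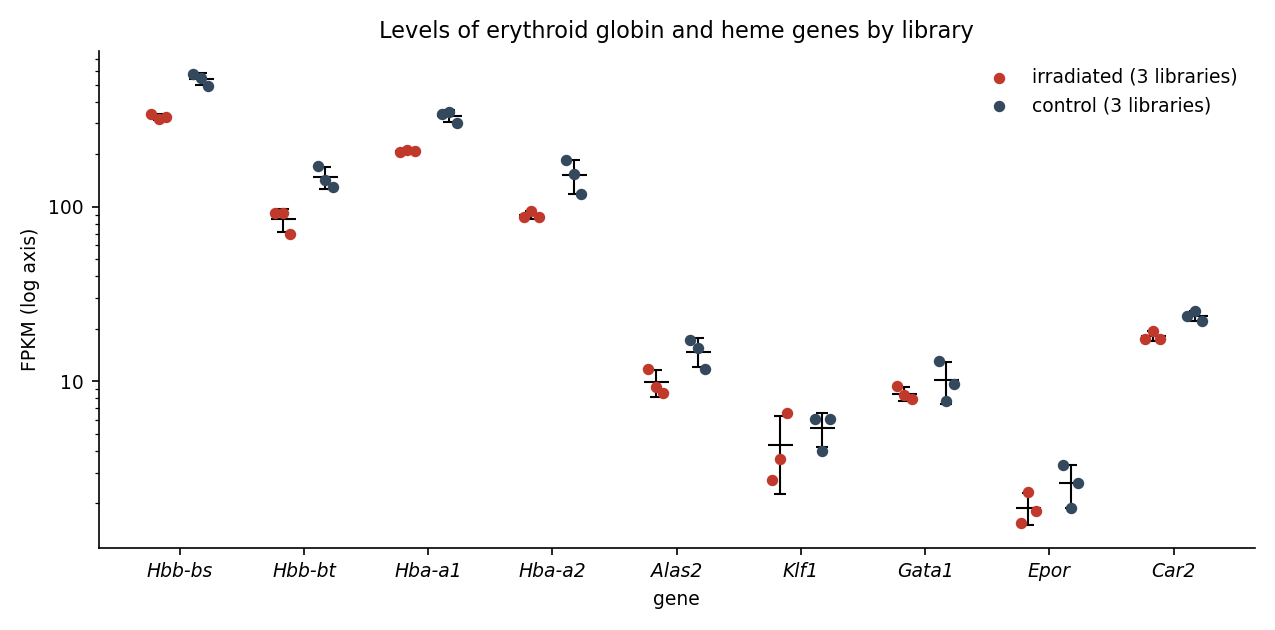
FPKM (log axis) of each gene in the 3 irradiated and 3 control libraries, where each point is a library and bars are the mean ± SD. The globins and Car2 show no overlap between the groups, while Alas2, Klf1, Gata1 and Epor overlap.

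The groups overlapped in the makeup of the globin RNA, where the split within each pair is uncertain. The 4 globins summed to 725, 715 and 693 FPKM in irradiated libraries, against 1273, 1194 and 1040.0 FPKM in control libraries. That is 0.147% ± 0.00406 of the summed FPKM in irradiated and 0.252% ± 0.0203 in control libraries (SD, n = 3 each), a share not weighted by transcript length. The ratio of summed alpha to summed beta FPKM was 0.679, 0.749 and 0.742 in irradiated libraries, against 0.706, 0.725 and 0.673 in control libraries, and the groups overlapped. Hbb-bt made up 20.5% ± 2.59 of beta globin FPKM in irradiated and 21.5% ± 1.29 in control libraries, and Hba-a2 30.1% ± 0.843 of alpha globin FPKM in irradiated and 31.3% ± 3.45 in control libraries. Ranked among all listed genes, Hbb-bs stood between places 178 and 188 in irradiated libraries and between 109 and 118 in control libraries.

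Of the other globin genes, the embryonic Hbb-bh1, Hbb-y and Hba-x and the gene Hbb-bh2 were not analysed here. The theta-like genes Hbq1a and Hbq1b were listed but fell below the filter, at no more than 0.0956 and 1.51 FPKM in any library. Ahsp, which encodes a chaperone that holds free alpha globin in erythroid cells, fell to 13.9, 12.9 and 14.8 FPKM in irradiated libraries, against 23.0, 20.8 and 15.7 FPKM in control libraries. Its groups did not overlap, and its log2 change was -0.47 ± 0.13 (limma adjusted p = 0.0258). The Ahsp call did not hold without irradiated library 1 or 2 or control library 1 or 2 (limma adjusted p between 0.0547 and 0.111). That call was also lost with no filter (limma adjusted p = 0.0867) and with no trend (0.0669). The ratio of globin sum to Ahsp was 51.5 ± 4.33 in irradiated and 59.6 ± 5.74 in control libraries (SD, n = 3 each), and the groups overlapped.

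Alas2, the erythroid enzyme that commits glycine to heme (chromosome X, 150547375 to 150570638), was at 11.8, 9.23 and 8.59 FPKM in irradiated libraries, against 17.1, 15.6 and 11.7 FPKM in control libraries. Irradiated library 1 lay just above the lowest control library, so the groups overlapped. Alas2 fell by 0.54 ± 0.15 on the log2 scale, with a limma adjusted p of 0.0301, but stood at 0.07 on the T cell scale. It no longer passed without irradiated library 2 (adjusted p = 0.08255) or 3 (0.1001), or without control library 1 (0.128) or 2 (0.103). It was also lost with no filter on low values (limma adjusted p = 0.103) and without a variance trend (0.0730). The ratio of globin sum to Alas2 was 73.2 ± 10.3 in irradiated and 79.9 ± 7.70 in control libraries (SD, n = 3 each), and the groups overlapped.

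Alas1, which catalyses the same step in cells of all kinds, went the other way. It rose to 122, 114 and 114 FPKM in irradiated libraries, against 86.0, 82.6 and 85.6 FPKM in control libraries (log2 change 0.46 ± 0.05, limma adjusted p = 0.000119). Alas2 stood at 8.42% ± 1.12 of the Alas1 level in irradiated and 17.5% ± 3.33 in control libraries (SD, n = 3 each), with no overlap. Of the 17 genes of heme synthesis and export other than Alas2, all tested, 2 rose (11.8%, against 6.29% of all tested genes) and 0 fell, with a median log2 change of 0.01. The T cell scale gave 16 higher. The second riser was Abcb10, a transporter of the mitochondrial inner membrane (0.45 ± 0.11, limma adjusted p = 0.0141), whose call was lost without irradiated library 3 (adjusted p = 0.0557). Slc25a38, which brings glycine into mitochondria, changed by 0.39 ± 0.13 and Fam210b by -0.36 ± 0.17, and neither passed (limma adjusted p = 0.0682 and 0.175). Fech, which inserts iron into heme, stood at 11.5 ± 1.35 FPKM in irradiated and 11.8 ± 0.912 FPKM in control libraries (SD, n = 3 each). These enzymes serve cells of all kinds, and the neutrophil markers, summed, were at 141% of the control mean in the irradiated libraries; their part in these values was not tested.

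Klf1, the factor that drives the adult beta globin gene (chromosome 8, 84901928 to 84905291), did not pass the test. It was at 2.71, 3.59 and 6.61 FPKM in irradiated libraries, against 6.06, 4.01 and 6.12 FPKM in control libraries. Irradiated library 3 had the highest value of all 6, and the other irradiated libraries the lowest. The log2 change was -0.32 ± 0.24 (limma adjusted p = 0.419), with a 95% interval from -0.85 to 0.21 that includes the changes of all 4 globins. Without irradiated library 3 the change was -0.61 (adjusted p = 0.0630), and without irradiated library 1 it was -0.10.

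Gata1, the master factor of erythroid cells that eosinophils, basophils, mast cells and megakaryocytes also transcribe (chromosome X, 7959260 to 7978071), did not pass either. It was at 9.36, 8.30 and 7.87 FPKM in irradiated libraries, against 13.1, 7.67 and 9.71 FPKM in control libraries. The lowest value of all was in control library 2, and the groups overlapped. The log2 change was -0.21 ± 0.16 (limma adjusted p = 0.436), and its 95% interval, from -0.56 to 0.15, does not reach the change of any globin. The 95% intervals of Hbb-bt, Hba-a1 and Hba-a2 end at -0.55, -0.53 and -0.46 and overlap that of Gata1. Differences between genes were not tested. Left-out libraries moved the Gata1 change between -0.37 (without control library 2) and -0.02 (without control library 1). The other cell types that use Gata1 moved in different directions: eosinophil markers (8 of 10 fell) summed to 3557 to 3614 FPKM in irradiated and 5455 to 6026 FPKM in control libraries. Basophil and mast cell markers (7 of 9 tested rose) summed to 3608 to 3692 FPKM in irradiated and 2405 to 2581 FPKM in control libraries. Megakaryocyte and platelet markers summed to 290 to 303 FPKM in irradiated and 279 to 297 FPKM in control libraries, with 1 of 8 tested called higher and 2 lower. Rap1b, which was not called, made up most of that sum, with means of 204.5 FPKM in irradiated and 215.6 FPKM in control libraries. The sum therefore says little about the other markers. The 1 higher was Itga2b (log2 change 0.75), and the 2 lower were Ppbp (-1.14) and Clec1b (-1.02). The 2 lower calls became 0 without control library 1 or 2, where Ppbp fell below the filter and was not tested and Clec1b did not pass. They became 1 with no filter, with no trend, and without irradiated library 1 or 2 or control library 3. Their part in the Gata1 level was not tested.

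Epor, the receptor that keeps erythroid precursors alive (chromosome 9, 21958897 to 21963506), was the lowest of the 9 genes. It was at 1.54, 2.31 and 1.82 FPKM in irradiated libraries, against 3.31, 1.89 and 2.60 FPKM in control libraries. The groups overlapped, and the log2 change of -0.31 ± 0.18 did not pass (limma adjusted p = 0.291, 95% interval -0.71 to 0.09). Of 18 genes of erythropoietin signalling, 15 were tested, of which 2 rose and 0 fell, with a median log2 change of -0.14. The share higher was 13.3%, against 6.29% of all tested genes, while the T cell scale gave 13 higher. The risers were Socs3, a brake on cytokine receptors (0.58 ± 0.11, limma adjusted p = 0.00363), and the kinase gene Pim1 (0.29 ± 0.06, 0.00633), both of which myeloid cells use too. The phosphatase gene Inpp5d, at -0.21 ± 0.07, and the kinase gene Lyn, at -0.17 ± 0.06, did not pass (limma adjusted p = 0.0603 and 0.0713). Jak2, the kinase bound to Epor, was at 15.8 ± 0.465 FPKM in irradiated and 17.2 ± 0.405 FPKM in control libraries and did not pass (limma adjusted p = 0.367).

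Car2, a carbonic anhydrase that red cells, osteoclasts and other cells use to turn carbon dioxide into bicarbonate (chromosome 3, 14886273 to 14900770), fell to 76.7% of the control mean on deposited FPKM but was higher on the T cell scale. It was at 17.4, 19.5 and 17.5 FPKM in irradiated libraries, against 23.8, 25.1 and 22.1 FPKM in control libraries. The groups did not overlap, and the log2 change was -0.37 ± 0.08 (limma adjusted p = 0.0122). Without control library 2 the call was lost (adjusted p = 0.0639). Car1, the other abundant carbonic anhydrase of red cells, was at 18.1 ± 3.52 FPKM in irradiated and 17.7 ± 0.793 FPKM in control libraries (log2 change 0.02 ± 0.12, limma adjusted p = 0.943). The ratio of Car2 to Car1 was 1.02 ± 0.142 in irradiated and 1.34 ± 0.144 in control libraries (SD, n = 3 each), with no overlap. Of the 15 other carbonic anhydrase genes of the family, 4 were tested. Of these 0 passed the limma test, where 16.6% of all tested genes did. The other 3 were Car9 at 0.05, Car13 at -0.30 and Car15 at -0.04. Of 8 osteoclast markers, 3 were tested. Ctsk and Acp5, which macrophages transcribe too, changed by -1.25 and -0.72, and Mmp9, which neutrophils transcribe too, by 0.66. Their summed levels followed Mmp9, at 380.2 to 385 FPKM in irradiated and 261 to 275 FPKM in control libraries, and their part in the Car2 change was not tested.

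Transcription factors that act with Gata1 and Klf1 moved in both directions. Of 21 such genes, 20 were tested, of which 5 rose and 2 fell, with a median log2 change of -0.00172. The share lower, 10.0%, was close to the 10.3% of all tested genes, while the share higher lay above their 6.29%. The 5 became 3 without irradiated library 2, control library 1 or control library 2, and 2 with no trend, and the T cell scale gave 19 higher and 0 lower. Zfpm1, which encodes the Gata1 partner Fog1, fell to 10.1, 8.33 and 7.39 FPKM in irradiated libraries, against 15.3, 14.8 and 13.1 FPKM in control libraries (log2 change -0.69 ± 0.12, limma adjusted p = 0.00231). Gata2, which precedes Gata1 in erythroid precursors and persists in basophils and mast cells, rose to 82.2, 86.4 and 85.2 FPKM in irradiated libraries, against 52.7, 48.6 and 55.8 FPKM in control libraries. Its log2 change of 0.68 ± 0.06 (limma adjusted p = 2.7e-05) stood beside the rise of 7 of 9 basophil and mast cell markers, a list that holds Gata2 itself. Gata1 was at 10.1% ± 1.15 of the Gata2 level in irradiated and 19.4% ± 4.88 in control libraries (SD, n = 3 each), with no overlap. Lyl1 (0.26 ± 0.06), Lmo2 (0.25 ± 0.06), Mafg (0.42 ± 0.10) and E2f2 (0.23 ± 0.06) also rose; Lyl1, Lmo2 and E2f2 did not pass with no trend (limma adjusted p between 0.0642 and 0.0682). Lmo2, Mafg and E2f2 each lost the call in 2 of 6 fits without a library, those without control library 1 (Lmo2 and Mafg), control library 2 (Lmo2 and E2f2) and irradiated library 2 (Mafg and E2f2). Tcf3, which encodes the E2A proteins of lymphoid and erythroid cells, changed by -0.31 ± 0.07. Tal1 and Gfi1b, factors of erythroid and megakaryocyte cells, changed by -0.02 ± 0.12 and 0.17 ± 0.16 and did not pass.

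Of 25 genes of the red cell membrane 18 were tested, of which 2 fell and 0 rose, with a median log2 change of -0.12. The share lower, 11.1%, was close to the 10.3% of all tested genes. The count was 1 without irradiated library 2 or control library 1, and the T cell scale gave 0 lower and 8 higher. Slc4a1, the band 3 anion exchanger of red cells, fell to 4.93, 4.86 and 5.69 FPKM in irradiated libraries, against 8.38, 8.36 and 7.74 FPKM in control libraries. Its log2 change was -0.57 ± 0.11 (limma adjusted p = 0.00515), and the call held whichever of the 6 libraries was left out. Tspo2, an erythroid membrane protein, fell to 1.19, 0.549 and 0.767 FPKM in irradiated libraries, against 2.03, 1.63 and 2.05 FPKM in control libraries (log2 change -0.67 ± 0.18, limma adjusted p = 0.0235). That call held only without irradiated library 1 or control library 2, and reached an adjusted p of 0.0846 without control library 1. Stom changed by -0.18 ± 0.07, Rhd by -0.38 ± 0.17 and Rhag by -0.39 ± 0.19, and none of these passed.

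Of 23 genes of late red cell maturation, 22 were tested, of which 5 fell and 1 was called higher, with a median log2 change of -0.21. The share lower was 22.7%, against 10.3% of all tested genes, and the share higher 4.55%, against 6.29%. Without control library 2 the counts were 3 lower and 0 higher, and on the T cell scale 0 lower and 12 higher. Bpgm, which makes the 2,3-bisphosphoglycerate that loosens oxygen from haemoglobin, fell to 13.0 ± 1.40 FPKM in irradiated libraries, against 18.1 ± 1.36 FPKM in control libraries (limma adjusted p = 0.0108). Its call was lost without control library 2 (adjusted p = 0.0576). Pklr, the pyruvate kinase of red cells and liver, fell to 1.10 ± 0.259 FPKM in irradiated libraries, against 2.14 ± 0.505 FPKM in control libraries (limma adjusted p = 0.0451). That call was lost without irradiated library 2 or 3 or control library 1 or 2 (adjusted p between 0.105 and 0.177), and with no filter, median-of-ratios scaling or quantile normalization. Catalase (Cat), Ucp2 and Ube2l6, which leukocytes also transcribe, changed by -0.53 ± 0.07, -0.29 ± 0.04 and -0.52 ± 0.08, and the 1 higher gene, Riok3, by 0.22 ± 0.07. The Riok3 call (limma adjusted p = 0.0396) was lost with the library number as a replicate block (0.0522), with no filter, with no trend and when any library but irradiated library 3 was left out (up to 0.145). Macrophage markers fell in the same libraries, and Ube2l6 is also induced by interferon. Their part in these changes was not tested.

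**Figure D2:**
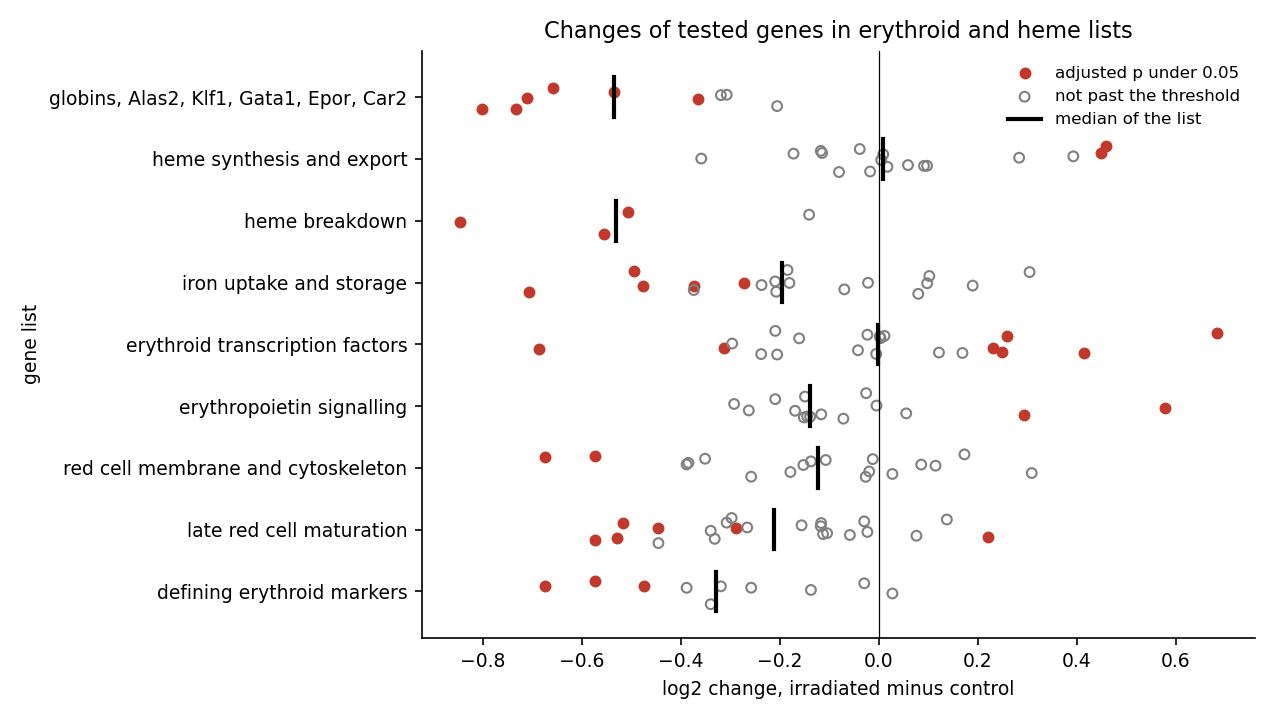
Log2 change (irradiated minus control) of every tested gene in the erythroid and heme lists, with genes past the limma adjusted p of 0.05 filled and the median of each list as a bar. The globins form the low end of the top row, while the heme synthesis list centres near 0 with 2 risers.

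Of 12 defining erythroid markers 10 were tested, of which 3 fell (Ahsp, Slc4a1 and Tspo2) and 0 rose, with a median log2 change of -0.33. The share lower was 30.0%, against 10.3% of all tested genes. The 3 became 1 without irradiated library 2 or control library 1, and the T cell scale gave 0 lower and 1 higher. Klf1 is both a marker in that list and 1 of the 9 genes. The 12 markers summed to 36.1 to 44.1 FPKM in irradiated and 49.0 to 56.3 FPKM in control libraries. None was at 0 in all 6 libraries. Hemgn, Ermap, Trim10 and Cldn13 changed by between -0.34 and 0.03 and did not pass. The globin changes lay outside the 95% interval of Hemgn (-0.46 to 0.40) but inside that of Trim10 (-0.83 to 0.15), and differences between genes were not tested.

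Part of the genes that break down heme and store or export iron fell. Of 4 heme breakdown genes 3 fell (75.0%, against 10.3% of all tested genes) and 0 rose, with a median log2 change of -0.53. The T cell scale gave 1 lower and 1 higher. The heme oxygenase gene Hmox1 was at 60.3 ± 2.36 FPKM in irradiated and 109 ± 5.34 FPKM in control libraries. The biliverdin reductase genes Blvra and Blvrb changed by -0.51 ± 0.09 and -0.56 ± 0.12, and Hmox2 by -0.14 ± 0.07 without passing. With no filter the Blvrb call was lost (limma adjusted p = 0.0512). Of 18 genes of iron uptake and storage, all tested, 5 fell (27.8%) and 0 rose, with a median log2 change of -0.20. The T cell scale gave 0 lower and 14 higher. The 5 were Slc40a1, the iron exporter ferroportin (45.3 ± 1.43 FPKM in irradiated and 74.6 ± 0.848 FPKM in control libraries), the ferritin genes Fth1 (-0.49 ± 0.05) and Ftl1 (-0.37 ± 0.04), the endosomal gene Snx3 (-0.27 ± 0.05) and the iron importer Slc11a2 (-0.48 ± 0.12). The Slc11a2 call was lost without irradiated library 1 or 2 or control library 1 or 2 (limma adjusted p between 0.0521 and 0.0902). Tfrc, the transferrin receptor on which erythroblasts depend, was at 23.7 ± 1.37 FPKM in irradiated and 27.0 ± 2.19 FPKM in control libraries and did not pass (limma adjusted p = 0.174). All 15 markers of marrow macrophages fell, and this list includes Hmox1 and Slc40a1. They summed to 299.5 to 310.4 FPKM in irradiated and 824 to 861 FPKM in control libraries, and their part in the heme and iron changes was not tested.

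Set beside the marker lists, the fall of the globin sum was close in size to that of the T cell and eosinophil sums. The globin sum stood at 60.8% of its control mean, the 12 T cell and Treg markers at 62.0%, and the 10 eosinophil markers at 61.8%. Prg2 made up most of the eosinophil sum, with means of 2349 FPKM in irradiated and 3650 FPKM in control libraries. Single T cell and Treg markers changed by between -0.98 and -0.23, and single eosinophil markers by between -1.175 and -0.12. The 12 defining erythroid markers stood at 74.0%, marrow macrophage markers at 36.1% and B cell markers (9 of 9 tested fell) at 35.4%. Blood progenitor markers stood at 86.1%, with 2 of 9 tested called higher and 4 lower. The shares were 22.2% higher and 44.4% lower, against 6.29% and 10.3% of all tested genes. The 4 became 2 with the replicate block, with no filter, with no trend, with median-of-ratios scaling or quantile normalization, and without irradiated library 2 or control library 1 or 2. The sums of basophil and mast cell markers stood at 144.5% of their control mean, and those of 15 neutrophil markers (11 rose, 0 fell) at 141%. The ratio of globin sum to the eosinophil granule gene Prg2 was 30.3% ± 0.917 in irradiated and 31.99% ± 1.48 in control libraries, and the groups overlapped. The ratio of globin sum to the macrophage gene C1qa was 21.2 ± 1.12 in irradiated and 9.57 ± 0.442 in control libraries (SD, n = 3 each), with no overlap. The ratio of globin sum to Gata1 was 83.9 ± 5.69 in irradiated and 120.0 ± 31.4 in control libraries (SD, n = 3 each), also with no overlap. Its highest irradiated value was 88.1 and its lowest control value 97.04. The ratio of globin sum to Klf1 was 190.4 ± 81.5 in irradiated and 226.0 ± 65.4 in control libraries (SD, n = 3 each), and the groups overlapped. These ratios, like those of Alas2 to Alas1, Gata1 to Gata2, Car2 to Car1 and of the globin sum to Ahsp and Alas2, were chosen after their values were seen and have no test.

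**Figure D3:**
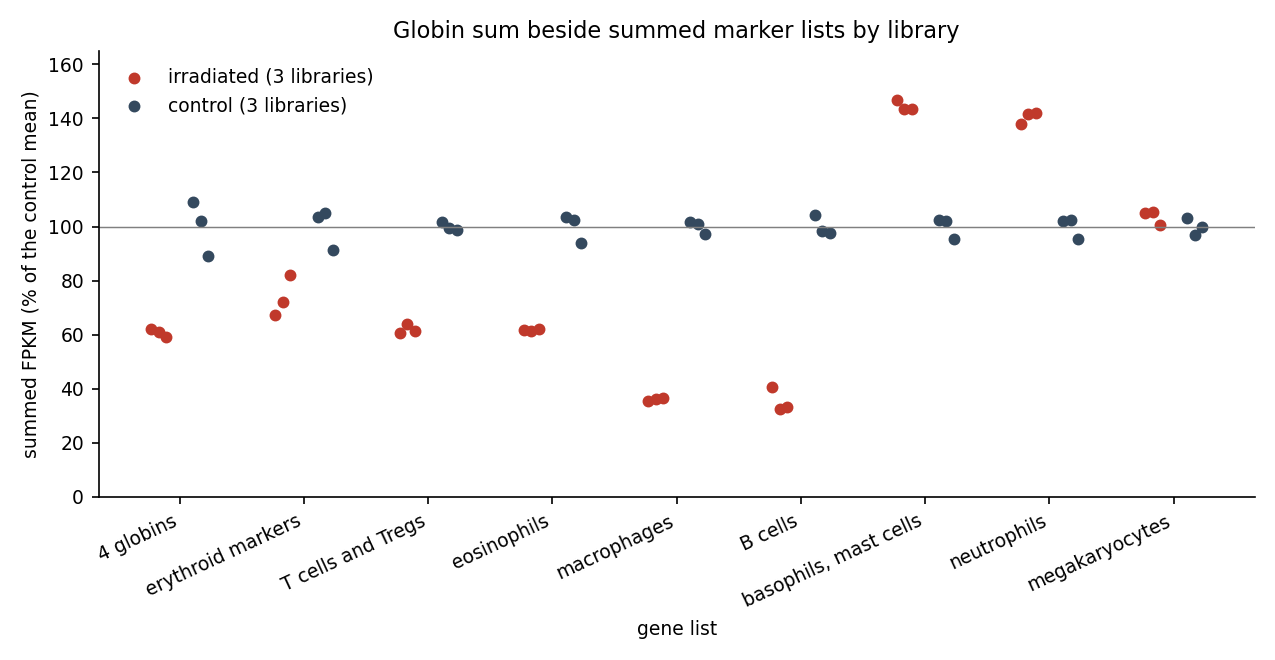
Summed FPKM of the 4 globins and of marker lists in each library, as a percentage of the control mean of the same sum. The globins, T cell and eosinophil sums of irradiated libraries lie near 60.8% to 62.0%, macrophage and B cell sums lie lower, and basophil and neutrophil sums lie above the control libraries.

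The direction of several genes depended on what the libraries were scaled to. Scaling to the geometric mean of 7 T cell genes, which themselves changed by between -0.98 (Cd3g) and -0.23 (Lat), moved the median of all tested genes to 0.57, with 8706 genes called higher and 233 lower, so that 97.4% of calls were higher there, against 37.9% on deposited FPKM. On that scale the globins changed by -0.01 to -0.15 and none passed. Relative to the median of all genes there, they lay at -0.57 (Hba-a1), -0.62 (Hbb-bs), -0.65 (Hba-a2) and -0.72 (Hbb-bt). Alas2, Klf1 and Epor turned to 0.07, 0.22 and 0.14 without passing. Car2 turned to 0.26 ± 0.08 (limma adjusted p = 0.0147) and Gata1 to 0.39 ± 0.16 (0.0438), both still below that median. The ratio of globin sum to the T cell gene mean was 28.9, 28.3 and 27.6 in irradiated libraries, against 32.6, 30.2 and 25.8 in control libraries, so the groups overlapped. The falls of Ahsp, Blvra, Blvrb, Fth1, Ftl1, Snx3, Slc11a2, Tcf3, Cat, Ucp2, Ube2l6 and Bpgm also turned to positive values on the T cell scale. Hmox1 stayed lower there (-0.20, limma adjusted p = 0.0140). Slc40a1 (-0.06), Zfpm1 (-0.09), Slc4a1 (-0.01), Tspo2 (-0.31) and Pklr (-0.18) were negative but no longer passed (limma adjusted p between 0.129 and 0.957). With median-of-ratios scaling and with quantile normalization 6 of the 9 genes were called lower as well.

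**Figure D4:**
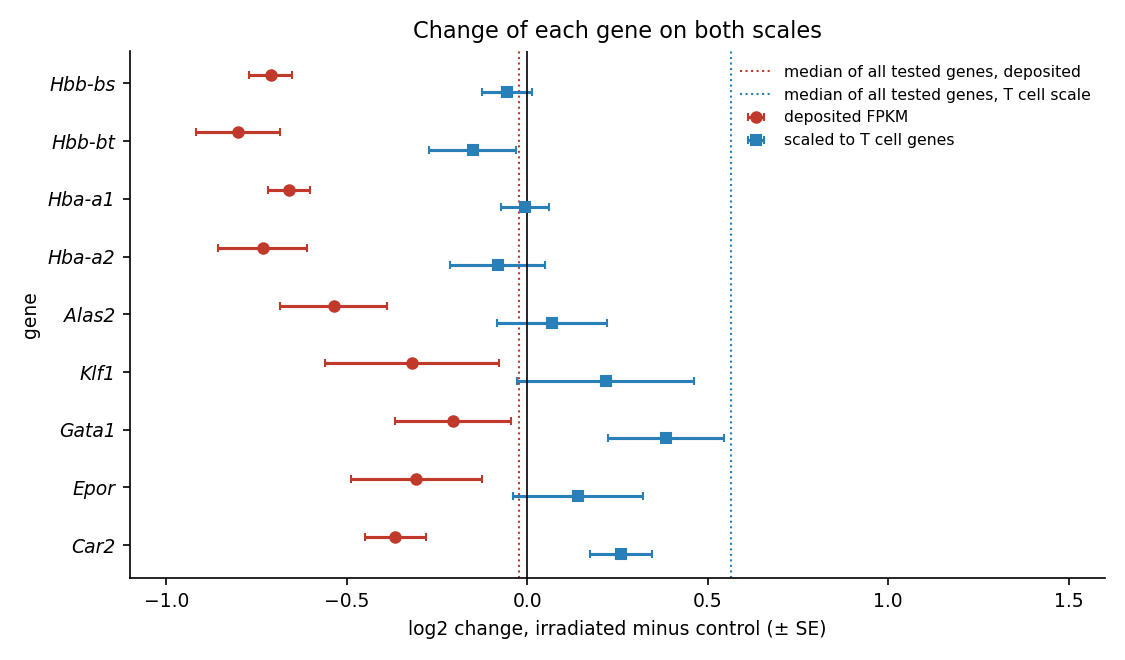
Log2 change ± SE (irradiated minus control) of each gene on deposited FPKM (circles) and after scaling to T cell genes (squares), with dotted lines at the median of all tested genes on each scale. The globins sit near 0 on the T cell scale, where the median gene sits at 0.57.

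Few genes around the alpha globin pair could be tested. Within 200 kb of the start of Hba-a1, other than the alpha globin pair, 10 protein-coding genes are annotated, of which 9 were listed and 5 were tested. Of these 0 passed the limma test, where 16.6% of all tested genes did, so 0 of 5 says little about these genes. Their median log2 change was -0.05. Nprl3, whose introns hold the alpha globin enhancers, begins 15.8 kb before Hba-a1 on the opposite strand and changed by 0.17 ± 0.17 (limma adjusted p = 0.559). Snrnp25, Mpg, Sh3pxd2b and Ubtd2 changed by 0.27, -0.05, -0.13 and -0.47, and none passed. Around Hbb-bs, 24 other protein-coding genes are annotated in the same distance, and 0 were listed. This survey of neighbours was added after the values were seen.

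**Figure D5:**
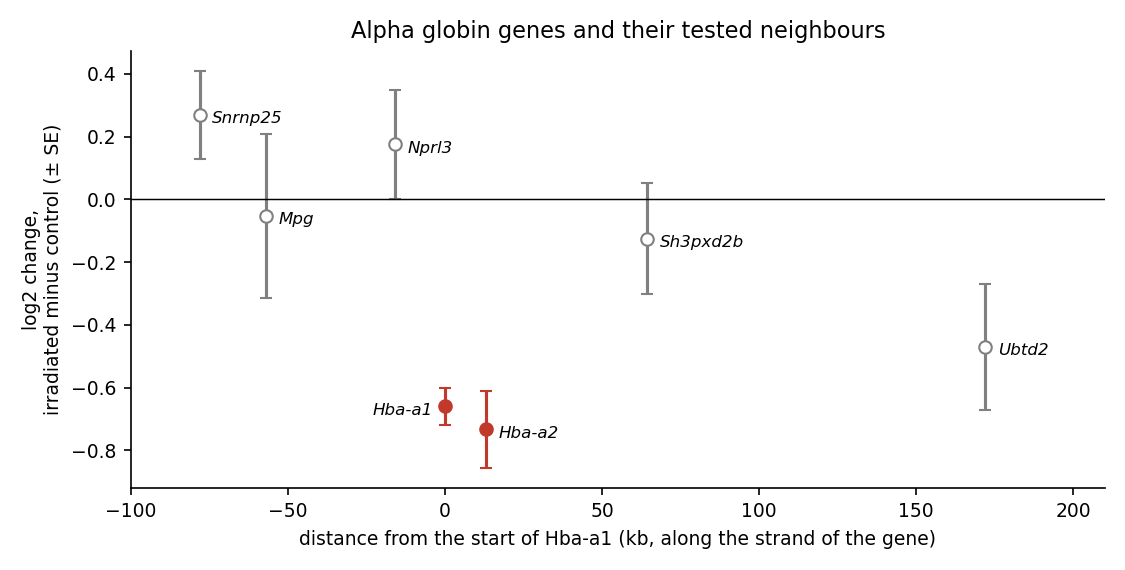
Log2 change ± SE (irradiated minus control) of the alpha globin genes (filled, limma adjusted p under 0.05) and the tested genes around them (open), against the distance of their starts from that of Hba-a1 in kb. The alpha globins lie at -0.66 and -0.73, below all 5 tested neighbours.

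The patterns across the 6 libraries were compared by the root mean square difference of log2 values, each gene centred on its own mean, over 7982 genes with a group mean of at least 5 FPKM. Within the 9 genes, Hba-a1 was closest to Hbb-bs (0.0549), followed by Hba-a2 (0.138), Hbb-bt (0.154) and Alas2 (0.162), and Klf1 was farthest (0.421). Outside the 9, the closest to Hbb-bs were Pla2g15, a lysosomal phospholipase (0.0281), Trf, which encodes transferrin (0.0436), and Ppp1r16b, a phosphatase subunit (0.0499). Trf was at 62.9 ± 2.21 FPKM in irradiated and 105 ± 6.18 FPKM in control libraries (log2 change -0.72 ± 0.06). The closest to Alas2 were the receptor gene Slamf1 (0.0914), the inhibitory receptor gene Lag3 (0.0975) and the peptidase gene Scpep1 (0.0980). The closest to Car2 were the adhesion gene Icam2 (0.0297), the co-chaperone gene Stip1 (0.0345) and the adaptor gene Dapp1 (0.0351). The measure takes in the difference between the groups, and the points share their libraries.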

How the data were processed

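RNA of sorted cells went through a micro-scale column extraction and a strand-specific poly(A) library kit, per the labels' protocols. The submitters' processing notes name fastp, HISAT2 and StringTie and the builds GRCm38 and mm10, without versions or annotation. The deposited tables give each gene's value in a library, taken here as FPKM from the tool named and the column totals, since no header states the unit.

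The test ran on log2(FPKM + 1) for genes averaging 1 FPKM or more: limma 3.58.1 under R 4.3.3, a moderated two-sided test with a variance trend, all 6 libraries, no covariate. P-values were adjusted by Benjamini-Hochberg across the 10666 genes, at a threshold of 0.05. The fit was tested on simulated data with known changes. Python 3.11.15, pandas 2.3.3, numpy 2.4.6, scipy 1.17.1 and matplotlib 3.10.9 served for the rest. The 9 genes and all lists were chosen with earlier results of these data known. By rule the text could name the 9 genes, up to 4 genes of lowest p in each list, and for Hbb-bs, Alas2 and Car2 the 3 genes most alike in pattern. Any other gene was chosen after its values were seen. Other settings tried were a pseudocount of 0.1, dropping the filter, a floor of 5 FPKM, scaling by median-of-ratios, quantiles or T cell genes, no trend, a replicate block, and omitting single libraries. Library numbers come from the sample titles.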

Additional observations from a re-analysis of the deposited data

How the results depend on the processing

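The numbers of genes called were 671 higher and 1100 lower. Leaving out a library gave 414 to 684 higher and 709 to 968 lower, with the lowest of both without control library 2, and scaling to T cell genes gave 8706 and 233. Of the 9 genes 6 were lower; leaving out a library gave 4 to 6, no filter and no trend gave 5 each, and the T cell scale gave 0 lower and 2 higher. The sample titles number the libraries 1 to 3 in each group, but same-numbered libraries did not deviate together (r of deviations 0.0111, -0.0423 and -0.0227 across genes). With the replicate block 558 genes were higher and 948 lower, and 6 of the 9 were lower.

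Leaving out a library moved Alas2 between -0.68 and -0.43, where 4 of 6 fits lost the call, and Car2 between -0.42 and -0.32, where 1 did. Alas2 was -0.54 with adjusted p of 0.103 with no filter and 0.0730 with no trend. On the T cell scale the values were -0.057 for Hbb-bs, -0.15 for Hbb-bt, -0.0056 for Hba-a1, -0.082 for Hba-a2, 0.068 for Alas2, 0.22 for Klf1, 0.39 for Gata1, 0.14 for Epor and 0.26 for Car2, and the log2 ratio of summed globins was -0.0634, against -0.72 on deposited values. That scaling divides by genes which themselves fell, which raises the other values.

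Other genes that turned on the T cell scale were Ahsp (0.14), Fam210b (0.14), Blvra (0.11), Blvrb (0.071), Hmox2 (0.50), Fth1 (0.16), Ftl1 (0.28), Snx3 (0.37), Slc11a2 (0.0384), Tcf3 (0.33), Inpp5d (0.44), Lyn (0.48), Stom (0.47), Rhd (0.11), Cat (0.11), Ucp2 (0.37), Ube2l6 (0.12), Bpgm (0.17), Car13 (0.0905), Car15 (0.43), Prg2 (0.0223), Slamf1 (0.0594), Lag3 (0.00929), Scpep1 (0.0305), Icam2 (0.24), Stip1 (0.27) and Dapp1 (0.30). Without 1 library Car9 ran from -0.15 to 0.17, Car1 from -0.12 to 0.14 and Car15 from -0.27 to 0.17, and Car15 was 0.0323 with quantile normalization. The low FPKM of Klf1 and Epor and the unknown depth limit what can be said of both.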
